A study of Macaca fascicularis with 605 samples.

Results

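Transcripts of 10 Polycomb group genes (EZH2, EZH1, EED, SUZ12, JARID2, MTF2, PHF19, RNF2, CBX2 and CBX7) were followed through embryos, pluripotent lines and germ cells of the cynomolgus monkey. The genes were taken by name, and all 10 had a row among the 26018 genes of the table, which covers 540 embryo cells, 28 embryonic stem cells, 12 germ cell-like cells and 25 gonadal cells. Polycomb proteins keep developmental genes silent in cells that do not need them, and pass that silence on through cell division. Polycomb repressive complex 2 (PRC2) methylates histone H3 at silenced genes, and Polycomb repressive complex 1 (PRC1) holds chromatin compact and adds ubiquitin to histone H2A. In pluripotent cells both complexes lie on genes of later lineages, HOX genes among them, and in germ cells they are known for silencing somatic and precocious meiotic genes.

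Embryo cells came from 9 days. Whole embryos were dissociated at E06 (24 cells), E07 (30), E08 (86) and E09 (16), before implantation. At E13, E14 (39 cells), E16, E17 (56) and E20 (5), after implantation, with E13 and E16 giving most cells, the tissue was a hand-dissected piece of the implantation site that held epiblast, amnion, hypoblast and yolk sac endoderm. Stage and dissection cannot be told apart. Embryonic stem cells (ESCs) were 13 CMK6 and 7 CMK9 cells, grown on mouse feeders with serum replacement (20%), mouse LIF (1000 U/ml) and bFGF (4 ng/ml), and 8 cells of the line 656BTAG in a medium named AITS with bFGF (20 ng/ml) and IWR1. Primordial germ cell-like cells (PGCLCs) were BTAG-positive cells of the 656BTAG line, sorted on day 8 from aggregates given LIF at 1000 U/ml, EGF at 50 ng/ml, SCF at 100 ng/ml and BMP4 at 200 ng/ml, with 10 µM of Y27632. Of these, 6 were from GMEM with 15% serum replacement (GK15) and 6 from Advanced RPMI with B27 (aRB27), and the genes behind the reporter name are not given in the sources used here. Gonadal cells, whose cDNAs had been classed as germ cells by quantitative PCR, were from E36 (5 cells), E43 (6), E50 (5) and E51 (7), with 1 cell each of E47 and E55. The titles of E36, E47 and E55 carry the letter m and those of E43, E50 and E51 the letter f, so this letter and the day cannot be told apart.

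Levels are in RPM, the reads of a gene scaled to a fixed total of mapped reads per cell, from tags at the 3-prime ends of transcripts. A unit is the mean RPM over the cells of 1 day, line or medium, and 18 units held at least 5 cells. The labels name no embryo, animal or culture for a cell, so p-values measure only the spread between days, lines or media, which are not repeats of 1 condition. Depth ranged from 151085 to 19696131 reads per cell with a median of 1982545. The median number of genes detected per embryo cell was 10012.5 before and 9536 after implantation. Shares of cells carry exact Clopper-Pearson 95% intervals, which cover counting error only. A gene entered a test with at least 10 RPM in at least 2 units, and a call is a Benjamini-Hochberg adjusted p under 0.05 over all genes tested with limma on log2(unit mean RPM + 1). All changes below are on that log2 scale, which understates the change of genes with low levels. Epiblast markers reached 10 RPM in 6 of 6 genes in the units E06 to E17 and in 4 of 6 at E20, where SOX2 was at 2.13 RPM. Early germ cell markers did so in 5 of 5 in both PGCLC units, in every gonadal unit and at E20, and in 2 to 4 of 5 on the other embryonic days. Late germ cell markers did so in 4 of 4 in every gonadal unit and in 0 of 4 in both PGCLC units.

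The unit means of the PRC2 core genes differed in span, with 1.22 for EZH2, 2.33 for EED, 3.19 for SUZ12 and 4.64 for EZH1 on the log2 scale. SUZ12, the scaffold subunit of PRC2, had its highest unit mean at E06 (572 RPM) and its lowest at E20 (62.01 RPM). Every cell from before implantation held at least 10 RPM of it. EZH2, the main histone methyltransferase of PRC2, ranged only from 53.6 RPM in gonadal E51 cells to 126.4 RPM at E17, the smallest span among the 10 genes. EED, the subunit that binds methylated histone H3 and stimulates the enzyme, ranged from 27.02 RPM in CMK6 to 139.95 RPM in gonadal E51 cells. EZH1, the second methyltransferase, was listed at 0 in most cells of every embryonic day, but reached 10 RPM in 66.67% of 6 gonadal E43 cells and 71.43% of 7 gonadal E51 cells. Its unit means stayed under 10 RPM at every embryonic day, it was listed at 0 in all 5 E20 cells, and its highest mean was 23.9 RPM in 656BTAG cells. Cells at 88.93 and 82.53 RPM carried that mean, and the median of the 8 cells was 3.375 RPM.

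Among the accessory subunits, JARID2, which recruits PRC2 and tunes its activity, spanned 4.34, from 34.6 RPM at E20 to 722 RPM in CMK6. MTF2, a Polycomb-like protein that brings PRC2 to unmethylated CpG-rich DNA, ranged from 44.9 RPM in GK15 PGCLCs to 186.6 RPM in CMK9. PHF19, another Polycomb-like protein, was near 0 before implantation, with unit means of 0.151, 0.842, 1.08 and 1.21 RPM at E06, E07, E08 and E09. In all, 1 cell of E07 and 2 cells of E08 reached 10 RPM. After implantation its means were 18.8, 6.26, 8.89, 4.20 and 0 RPM at E13, E14, E16, E17 and E20, so the E20 cells lay below every earlier day while the other 4 days lay above.

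Of the PRC1 members, RNF2, the main ubiquitin ligase, was detected at 10 RPM in at least 83.3% of the cells of each unit and spanned 1.41, from 63.8 RPM in aRB27 PGCLCs to 171.2 RPM at E20. CBX2, a chromodomain subunit that compacts chromatin, spanned 3.16, from 13.4 RPM at E06 to 128.3 RPM in CMK9. CBX7, the chromodomain subunit known for its part in mouse ESCs, was low throughout, with unit means between 0.100 RPM in gonadal E36 cells and 10.6 RPM in gonadal E43 cells. Cells of 1 unit varied widely: at E13, the lowest, median and highest cells held 0.49, 106.2 and 1025 RPM of SUZ12, and 0, 143.8 and 1774 RPM of JARID2. The plot of levels by group shows the mean, median and middle 50% of cells for every gene and unit.

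**Figure D1:**
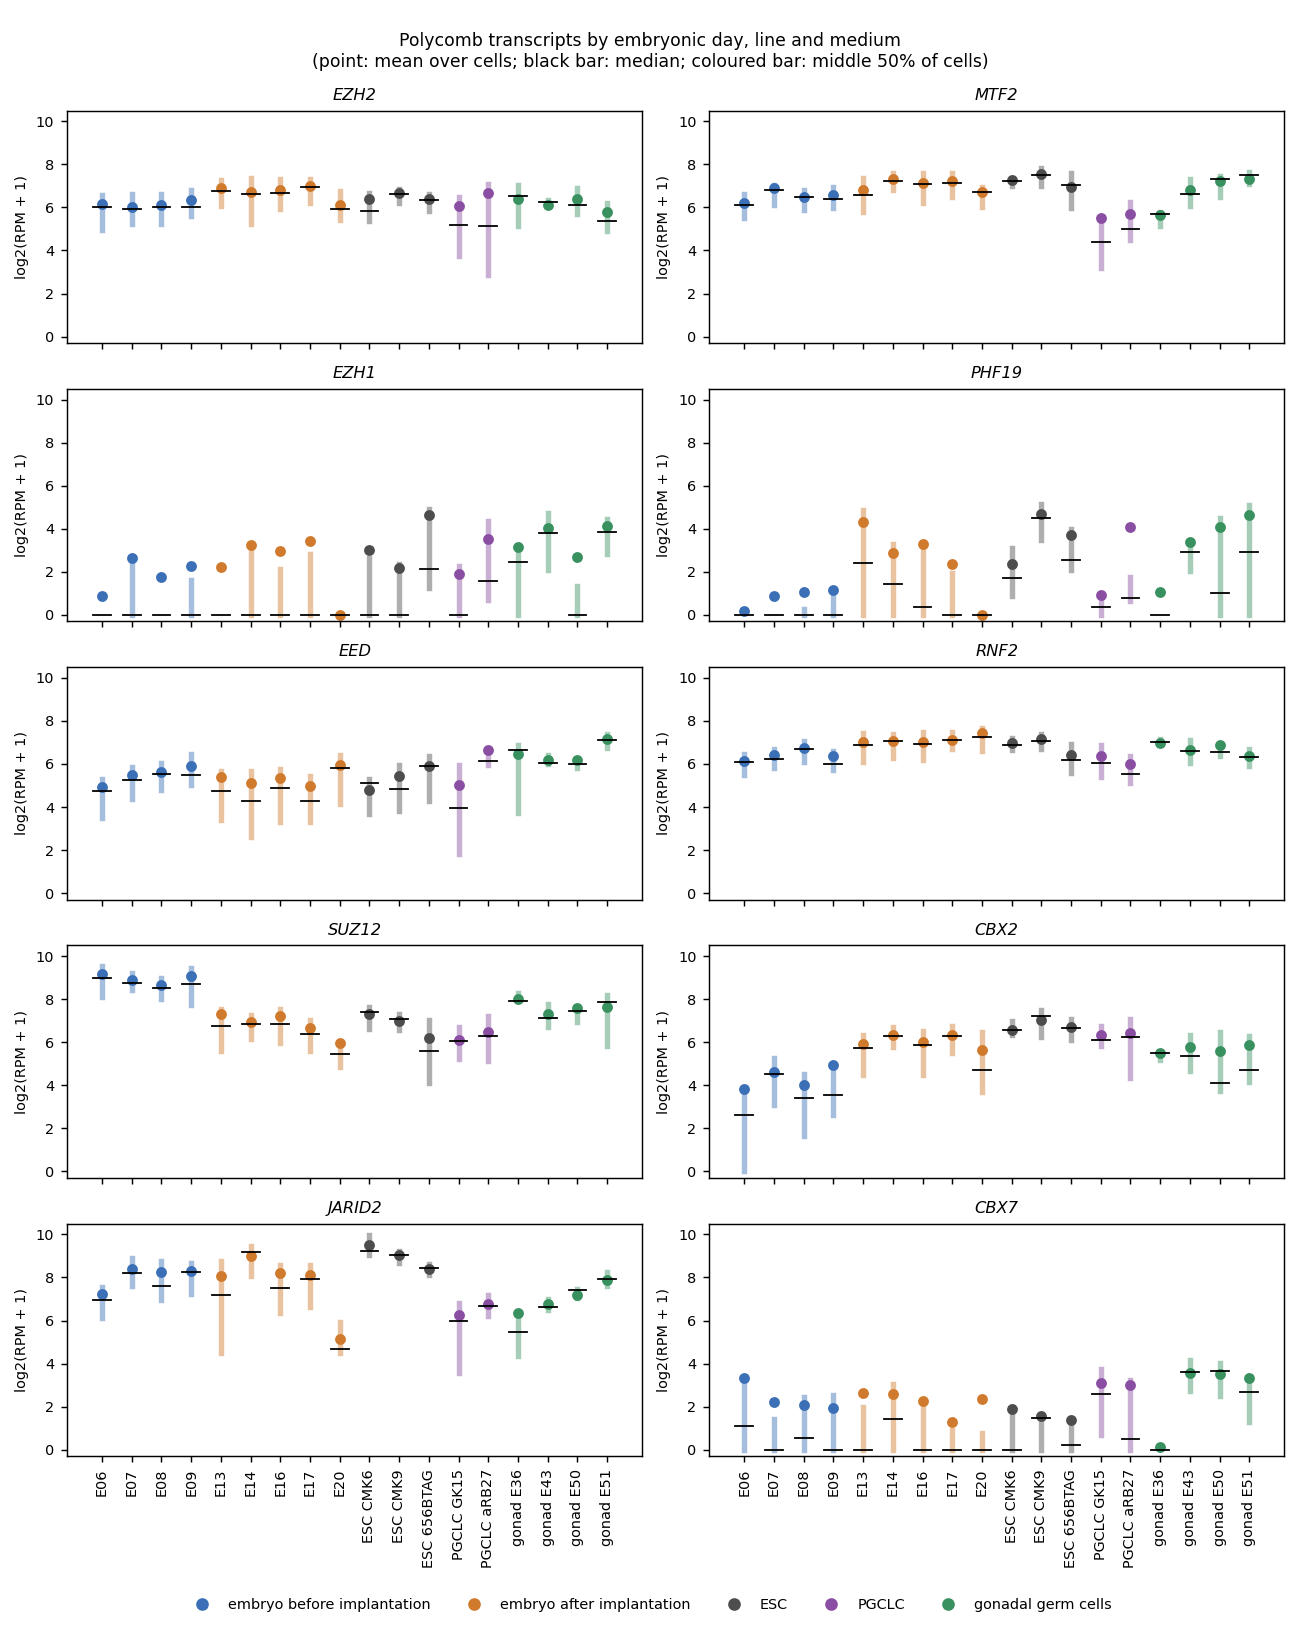
Level of each Polycomb gene, as log2(RPM + 1), in the 18 units with at least 5 cells, coloured by class. Points are means over cells, black bars medians and coloured bars the middle 50% of cells. SUZ12 is highest in the 4 units before implantation and CBX2 lowest there, while PHF19, EZH1 and CBX7 have medians at or near 0 in most units.

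Which Polycomb genes changed across implantation was asked first in all 540 embryo cells, with 5 days after it and 4 before. SUZ12 fell, and CBX2 and RNF2 rose, while EZH2, EED, JARID2 and MTF2 did not pass the test. So 3 of the 7 members that passed the filter were called, where 30.7% of all 10011 genes tested were called. EZH1, PHF19 and CBX7 fell below the filter, and without it their changes were 0.47 ± 0.75 (SE), 1.75 ± 0.79 and -0.17 ± 0.45, none of them called.

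SUZ12 measured 572, 479.8, 399 and 547 RPM at E06, E07, E08 and E09. It measured 156.2, 121.4, 146.1, 99.5 and 62.01 RPM at E13, E14, E16, E17 and E20. Every day after implantation lay below every day before it, with a gap between E08, the lowest of the earlier days, and E13, the highest of the later ones. The change was -2.14 ± 0.26 (SE), with a limma adjusted p of 0.00027. The call held in all 14 alternatives, with changes between -2.40 and -1.93.

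CBX2 measured 13.4, 23.7, 14.95 and 29.8 RPM on the 4 earlier days. On the 5 later days it measured 58.6, 80.8, 64.04, 78.9 and 49.35 RPM. All later days lay above all earlier days, a change of 1.70 ± 0.27 (SE) with a limma adjusted p of 0.00132. The share of cells with at least 10 RPM was 33.3% of 24 at E06 (95% interval 15.6 to 55.3%) and 97.4% of 39 at E14 (86.5 to 99.9%). The call held in all 14 alternatives.

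RNF2 differed less. It measured 70.4, 84.7, 105.01 and 81.6 RPM before implantation and 127.5, 133.3, 127.99, 137.4 and 171.2 RPM after it. The days did not overlap, and the change was 0.71 ± 0.17 (SE), with a limma adjusted p of 0.0105 that stayed under 0.05 in all 14 alternatives. The E20 mean, from 5 cells, stood well above the other later days.

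EZH2 measured 70.1, 64.4, 67.9 and 79.9 RPM before implantation and 120.5, 103.1, 111.1, 126.4 and 68.4 RPM after it. The first 4 later days lay above every earlier day and E20 lay among the earlier days. The change of 0.55 ± 0.20 (SE) had a limma adjusted p of 0.0593, and without E20 it was 0.70 with an adjusted p of 0.0054. MTF2 gave a change of 0.52 ± 0.20 (SE) with an adjusted p of 0.0681, and 0.60 with an adjusted p of 0.0307 without E20. Both were also called after quantile normalization and in none of the other 12 alternatives.

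EED and JARID2 overlapped between the stages. EED was at 29.2 to 59.9 RPM before and 30.6 to 60.3 RPM after implantation, a change of -0.14 ± 0.27 (SE). JARID2 was at 151.6 to 341 RPM before and 34.6 to 513 RPM after, a change of -0.35 ± 0.64 (SE), so its later days spread more widely than the stages differed.

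The cell types collected also differed between the stages. The summed mean of 6 trophectoderm markers was 1372 to 7405 RPM before implantation and 336 to 1592 RPM after it. That of 6 extraembryonic mesenchyme markers was 3.39 to 147.7 RPM before and 86.5 to 3721 RPM after, with none of the 6 at 0 in any later unit. The part of these markers in the changes above was not tested beyond the split by POU5F1 that follows.

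In the 340 embryo cells with POU5F1 at 200 RPM or more (78 before implantation and 262 after), the same 3 members were called, against 30.3% of 9878 genes tested. POU5F1 encodes the pluripotency factor OCT4, and this class is a range of its level, not a cell type, with 18 cells within 1.25-fold of its limit. SUZ12 in these cells measured 572, 439.5, 318 and 244 RPM at E06 to E09 and 148.6, 121.4, 137.7, 100.82 and 62.01 RPM from E13 to E20. The stages did not overlap, and the change was -1.77 ± 0.30 (SE) with a limma adjusted p of 0.00126. CBX2 measured 13.4, 29.1, 25.7 and 51.4 RPM before and 69.3, 80.8, 77.1, 76.1 and 49.35 RPM after, where E09 lay above E20. Its change was 1.34 ± 0.33 (SE), with an adjusted p of 0.0107. RNF2 changed by 0.64 ± 0.19 (SE), with an adjusted p of 0.0226, and this call was lost without E06 or E09, with the mean of log2 values and with stricter POU5F1 limits. Trophectoderm markers differed between the stages here too, at 1372 to 3527 RPM before and 285 to 1067 RPM after.

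The cells with POU5F1 below 50 RPM (14 at E08, 6 at E09, 52 at E13 and 45 at E16) allowed 2 days before implantation (E08 and E09) and 2 after (E13 and E16). Here 2 of the 8 members that passed the filter were called, where 7.45% of 8992 genes tested were called. Of these, PHF19 entered the test only through the later units, so its call is a description. SUZ12 measured 475 and 550 RPM at E08 and E09 and 166.7 and 154.2 RPM at E13 and E16, a change of -1.67 ± 0.24 (SE) with a limma adjusted p of 0.0191. PHF19 measured 0.902 and 1.35 RPM before and 30.1 and 15.2 RPM after. Its change was 3.41 ± 0.58 (SE), with a limma adjusted p of 0.0292. CBX2 (2.59 ± 0.78, SE), EZH2 (1.04 ± 0.35), RNF2 (0.63 ± 0.28) and JARID2 (-0.86 ± 0.47) did not pass, with limma adjusted p-values of 0.117 to 0.315. The stages did not overlap for these genes, with 2 days on each side, while MTF2 and EED overlapped. At 10 RPM or more, PHF19 was found in 0 of 21 POU5F1-low cells before implantation (1 of them from E07, which was not in the fit), which allows up to 16.1% (95% interval), and in 45 of 97 after it, or 46.4% (36.2 to 56.8%).

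In POU5F1-low cells SUZ12 was called in 7 of 10 alternatives, edgeR among them (adjusted p 0.0444). It gave an adjusted p of 0.121 without a filter, 0.199 without E13 and 0.159 without E16, with changes of -1.67, -1.72 and -1.61. Leaving out E13 or E16 left 1 later unit, which was assumed to vary like the others. PHF19 fell below the filter when either was left out, and the edgeR test gave it an adjusted p of 0.0727. These cells also differed in kind between the days. Trophectoderm markers summed to 16332 RPM at E08 and 4649 RPM at E09, against 823 RPM at E13 and 3939 RPM at E16, while extraembryonic mesenchyme markers summed to 21.4 and 11.4 RPM, then 7232 and 3197 RPM. The part of these markers in the PHF19 change was not tested.

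**Figure D2:**
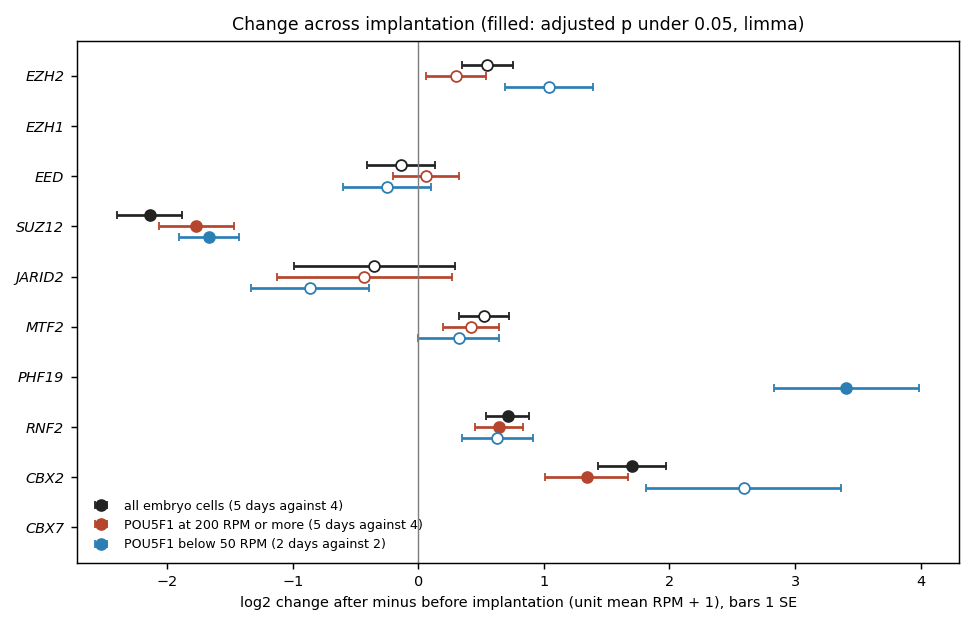
Change from before to after implantation for each gene, as a log2 difference of unit means with 1 SE, in all embryo cells and in both POU5F1 classes. Filled points passed an adjusted p of 0.05. SUZ12 lies at -2.14, -1.77 and -1.67 and is filled in all 3 fits, CBX2 and RNF2 are filled in all cells and POU5F1-high cells, and PHF19, which entered only through the later units, in POU5F1-low cells; genes below the filter have no point.

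A difference of the implantation change between the POU5F1 classes was tested directly and called for 0 of 9979 genes (percent called 0), none by edgeR either, although 1578 had an unadjusted limma p under 0.05. The fit left 2 residual degrees of freedom. Among the members, CBX2 (-1.60 ± 0.55, SE) and PHF19 (-1.97 ± 0.78) had unadjusted p-values of 0.0277 and 0.0448 and adjusted ones of 0.254 and 0.306. So the larger CBX2 and PHF19 changes in POU5F1-low cells were not shown to differ from those in POU5F1-high cells. The CBX2 change in POU5F1-low cells, 2.59 ± 0.78 (SE), was itself not called (limma adjusted p 0.117). In POU5F1-high cells PHF19 fell below the filter, and its change without a filter was 1.15 ± 0.68 (SE). PHF19 entered this fit only through the POU5F1-low units of E13 and E16, so its values here are a description.

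Part of each title is a code whose meaning is not given in the sources used here. The codes MS126, MS132 and MS133 each hold cells of both E08 (14, 10 and 43) and E16 (12, 24 and 7), which allowed the members to be compared within a code, without a test. SUZ12 was lower at E16 in all 3, by -1.35, -1.36 and -1.03. CBX2 was higher in all 3, by 1.3, 3.07 and 1.21, and so were RNF2, by 0.45, 0.40 and 0.25, and EZH2, by 0.45, 0.78 and 1.15. JARID2, MTF2, PHF19, EED, EZH1 and CBX7 differed in sign between codes.

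**Figure D3:**
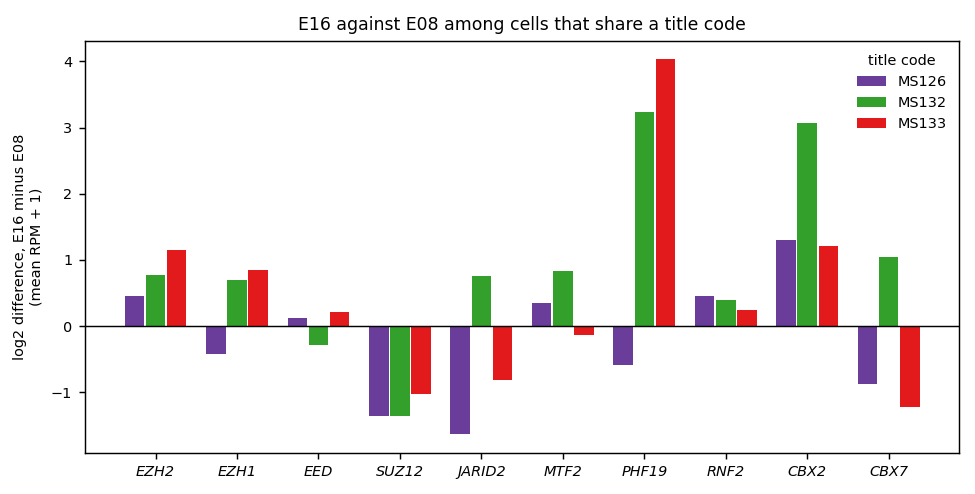
Difference of E16 from E08, as log2 of mean RPM + 1, among cells that share a title code, with 1 bar per code and gene. The bars of SUZ12 point down and those of EZH2, RNF2 and CBX2 up in all 3 codes, while JARID2 runs from -1.63 to 0.76.

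Few of the other Polycomb genes were called across implantation. Of 23 tested genes of the complexes outside the 10 members, 0 rose and 1 fell in all embryo cells, where 30.7% of all genes were called. Their median change was -0.24 beside -0.05 over all genes. The gene that fell was RYBP, a PRC1 subunit of the variant complexes, from 197.1 to a lower level (-0.63 ± 0.19, SE, limma adjusted p 0.0277). In POU5F1-high cells 2 of 22 fell, where 30.3% of all genes were called. These were EPOP, an inhibitory partner of PRC2, by -1.98 ± 0.48 (SE), and BMI1, a PRC1 subunit, by -1.10 ± 0.33. EPOP averaged 22.14 RPM before and 5.06 RPM after implantation there, and passed the filter only with the earlier days. Its fall is therefore a description, and the count that holds it supports nothing. Of 12 trithorax genes, which counter Polycomb, 1 rose (KMT2A) and 3 fell (WDR5, KMT2C and KMT2B) in all embryo cells, beside the 30.7% called over all genes, and WDR5 showed the largest change at -1.63 ± 0.24 (SE). Among 40 HOX and CDKN2 genes, the textbook Polycomb targets, 5 passed the filter. HOXB3 averaged 0.738 RPM before and 23.9 RPM after implantation and HOXB6 0.293 and 11.6 RPM, and as both passed only through the later days, these values are a description.

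Within a day, cells with POU5F1 at 200 RPM or more were set against cells below 50 RPM at E08 (28 and 14 cells), E09 (7 and 6), E13 (58 and 52) and E16 (the larger part of the day's cells and 45), with the day as a block. JARID2 was higher in the POU5F1-high cells on all 4 days and was the only member called of 8 tested, where 6.77% of 9979 genes tested were called. Near the lower limit of POU5F1, 22 cells lay within 1.25-fold of it.

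JARID2 measured 561, 397, 463 and 392 RPM in the POU5F1-high cells of E08, E09, E13 and E16. In the POU5F1-low cells of the same days it measured 164.9, 178.5, 59.1 and 148.7 RPM. The unit means of the classes did not overlap, and the difference was 1.81 ± 0.30 (SE) with a limma adjusted p of 0.0262. The adjusted p was 0.0882 without E08, 0.0606 without E09, 0.0623 without E16, 0.134 without a filter and 0.0715 by edgeR, with differences of 1.81 to 2.03. Over all days after implantation, including E14, E17 and E20, which were not in this fit, 97.7% of 262 POU5F1-high cells (95% interval 95.1 to 99.2%) and 72.2% of 97 POU5F1-low cells (62.1 to 80.8%) held at least 10 RPM. JARID2 did not rise steadily with POU5F1 there. The 25 later cells between the limits averaged 40.4 RPM, beside 100.7 RPM in POU5F1-low and 399.9 RPM in POU5F1-high cells. The POU5F1-high E20 cells averaged 34.6 RPM. Before implantation the 57 cells between the limits averaged 211.6 RPM, beside 167.7 RPM in the low and 376.5 RPM in the high class.

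MTF2 and CBX2 were higher in POU5F1-high cells on all 4 days without passing the test. MTF2 measured 114.05, 130.1, 138.6 and 169.4 RPM in the high class and 84.5, 54.9, 84.3 and 86.2 RPM in the low class. The unit means of its classes did not overlap, and the difference was 0.83 ± 0.19 (SE), adjusted p 0.0521. CBX2 measured 25.7, 51.4, 69.3 and 77.1 RPM against 2.41, 14.04, 44.6 and 39.8 RPM, a difference of 1.58 ± 0.41 (SE) with an adjusted p of 0.0687. The CBX2 mean of the high class was above that of the low class on each day, but some low-class means lay above high-class means of other days, and single cells of the classes overlapped on each day.

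CBX7 fell below the filter, yet the unit means of its classes did not overlap: 5.97, 5.85, 8.82 and 5.14 RPM against 0.251, 0.662, 1.33 and 1.94 RPM. Without a filter its difference was 1.91 ± 0.44 (SE), with an adjusted p of 0.166. SUZ12 went the other way, lower in POU5F1-high cells on all 4 days, at 318, 244, 148.6 and 137.7 RPM against 475, 550, 166.7 and 154.2 RPM. That difference, -0.52 ± 0.21 (SE), had an adjusted p of 0.159.

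EZH2, EED and RNF2 differed little. RNF2 was higher in the high class on all 4 days, by 0.31 ± 0.17 (SE). EZH2 differed by 0.45 ± 0.29, of which E09 gave most (123.4 against 42.2 RPM), and at E13 it was lower in the high class (118.1 against 123.8 RPM). EED differed by 0.00 ± 0.22. PHF19 was higher in POU5F1-high cells at E08 and E09 and lower at E13 (8.49 against 30.1 RPM) and E16 (5.38 against 15.2 RPM), for a difference of -0.54 ± 0.60 (SE). It passed the filter only through the POU5F1-low units of E13 and E16, so this difference is a description.

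**Figure D4:**
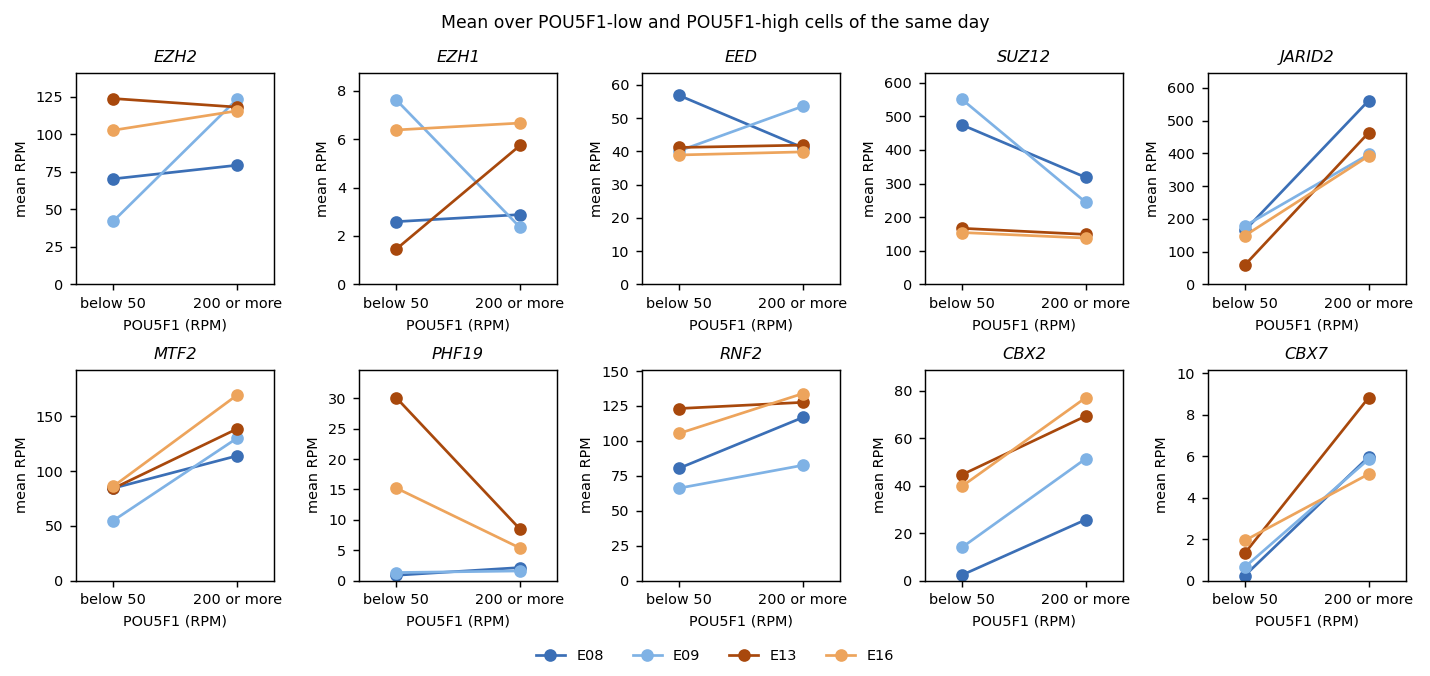
Mean RPM of each gene in POU5F1-low and POU5F1-high cells, with 1 line per embryonic day. Lines for JARID2, MTF2, RNF2, CBX2 and CBX7 slope up on all 4 days, those for SUZ12 slope down on all 4, and those for PHF19 slope down at E13 and E16.

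Of the other Polycomb genes, 2 of 23 were higher and 1 lower in the POU5F1-high cells, where 6.77% of all genes were called. All 3 belong to PRC1, as did 16 of the 23 genes tested. PHC1, a polyhomeotic subunit, averaged 80.6 against 13.5 RPM (2.47 ± 0.27, SE, limma adjusted p 0.0098), while its paralog PHC2 averaged 11.5 against 62.7 RPM (-2.54 ± 0.33, adjusted p 0.0161). KDM2B, which brings a variant PRC1 to CpG islands, averaged 79.8 against 39.2 RPM (1.00 ± 0.19, adjusted p 0.0337). Of 18 proliferation genes, 8 were higher in the POU5F1-high cells and none lower, beside 6.77% called over all genes, with MCM3 at 414 against 163.1 RPM. The 5 epiblast markers other than POU5F1 summed to 2469 to 5185 RPM in the high class and 280.7 to 1182 RPM in the low class. The part of proliferation or lineage in the JARID2 difference was not tested.

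PGCLCs, ESCs and gonadal germ cells were compared in 1 fit of 3 ESC, 2 PGCLC and 4 gonadal units, in which all 10 members passed the filter. JARID2 was lower in PGCLCs and in gonadal germ cells than in ESCs. MTF2 was also lower in PGCLCs, CBX2 was lower in gonadal germ cells, and SUZ12 was higher in gonadal germ cells than in PGCLCs. PGCLCs against ESCs gave 2 of 10 members called beside 11.1% of 10557 genes, gonadal germ cells against ESCs 2 beside 20.8%, and gonadal germ cells against PGCLCs 1 beside 12.4%. The 3 comparisons share their units, so they are not independent of each other.

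JARID2 measured 722, 528 and 338 RPM in CMK6, CMK9 and 656BTAG ESCs, and 76.1 and 108.8 RPM in GK15 and aRB27 PGCLCs. In gonadal cells of E36, E43, E50 and E51 it measured 79.4, 108.5, 147.01 and 237.7 RPM. All germ cell units lay below all ESC units, and PGCLC and gonadal units overlapped. PGCLCs differed from ESCs by -2.46 ± 0.44 (SE), with a limma adjusted p of 0.0027, and gonadal cells from ESCs by -1.93 ± 0.37, adjusted p 0.0021. Both calls held in all 17 alternatives. Single cells of the parent line did not overlap with the PGCLCs in either medium: the lowest 656BTAG ESC held 212.97 RPM, and the highest PGCLCs held 211.83 RPM in GK15 and 167.2 RPM in aRB27, a gap of about 1 RPM in the first case.

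MTF2 measured 153.6, 186.6 and 124.1 RPM in the ESC units, 44.9 and 51.5 RPM in PGCLCs and 49.3, 111.7, 149.8 and 159.7 RPM in the gonadal units of rising age. Both PGCLC units lay below every ESC unit, and of the gonadal days only E36 lay near the PGCLCs. The difference between PGCLCs and ESCs was -1.65 ± 0.46 (SE), with a limma adjusted p of 0.0337. This call was lost in 8 of 17 alternatives, among them leaving out CMK6 (adjusted p 0.0941), CMK9 (0.127), GK15 (0.161) or aRB27 (0.0944). PHF19, the other Polycomb-like gene, ranged from 4.11 to 24.5 RPM in ESCs, 0.873 to 15.9 RPM in PGCLCs and 1.11 to 24.04 RPM in gonadal cells, and no difference passed the test. A single cell with 90.8 RPM carried the aRB27 mean.

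CBX2 measured 94.5, 128.3 and 105.2 RPM in ESCs, 79.2 and 84.8 RPM in PGCLCs and 43.9, 53.6, 47.6 and 56.8 RPM in gonadal units. The 3 classes did not overlap. Gonadal cells differed from ESCs by -1.10 ± 0.31 (SE), with a limma adjusted p of 0.0216, which was 0.0537 without CMK6 and 0.112 without CMK9. The steps from ESCs to PGCLCs (-0.40 ± 0.37) and from PGCLCs to gonadal cells (-0.70 ± 0.35) did not pass the test. RNF2 was at 123.9, 141.7 and 85.7 RPM in ESCs, 82.6 and 63.8 RPM in PGCLCs and 82.6 to 125.2 RPM in gonadal cells, with no call. CBX7 was at 1.64 to 2.76 RPM in ESCs and about 7 RPM in both PGCLC units (7.63 and 7.16), and 3 of 4 gonadal units lay between 9.16 and 10.6 RPM, yet its differences of 1.45 ± 1.07 and 1.01 ± 0.89 (SE) from ESCs did not pass. It entered this fit only through gonadal E43 and E50, so these differences are a description.

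In the PRC2 core, SUZ12 measured 160.03, 125.7 and 73.5 RPM in ESCs, 67.9 and 88.8 RPM in PGCLCs and 260.1, 158.2, 192.6 and 199 RPM in gonadal cells. Every gonadal unit lay above both PGCLC units, a difference of 1.35 ± 0.36 (SE) with a limma adjusted p of 0.0263. The call was lost in 8 of 17 alternatives, among them leaving out GK15 (adjusted p 0.177), aRB27 (0.0599) or gonadal E51 (0.0523), and by edgeR (0.0755). EED measured 27.02, 42.02 and 58.3 RPM in ESCs, 31.9 and 100.6 RPM in GK15 and aRB27 PGCLCs and 86.8, 72.3, 71.7 and 139.95 RPM in gonadal cells. The ESC and gonadal units did not overlap, but their difference of 1.12 ± 0.45 (SE) had a limma adjusted p of 0.0894. The aRB27 PGCLCs lay above the gonadal units of E36, E43 and E50. EZH2 and EZH1 overlapped between the classes, with changes of at most 0.79 in size against SEs of up to 0.94.

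**Figure D5:**
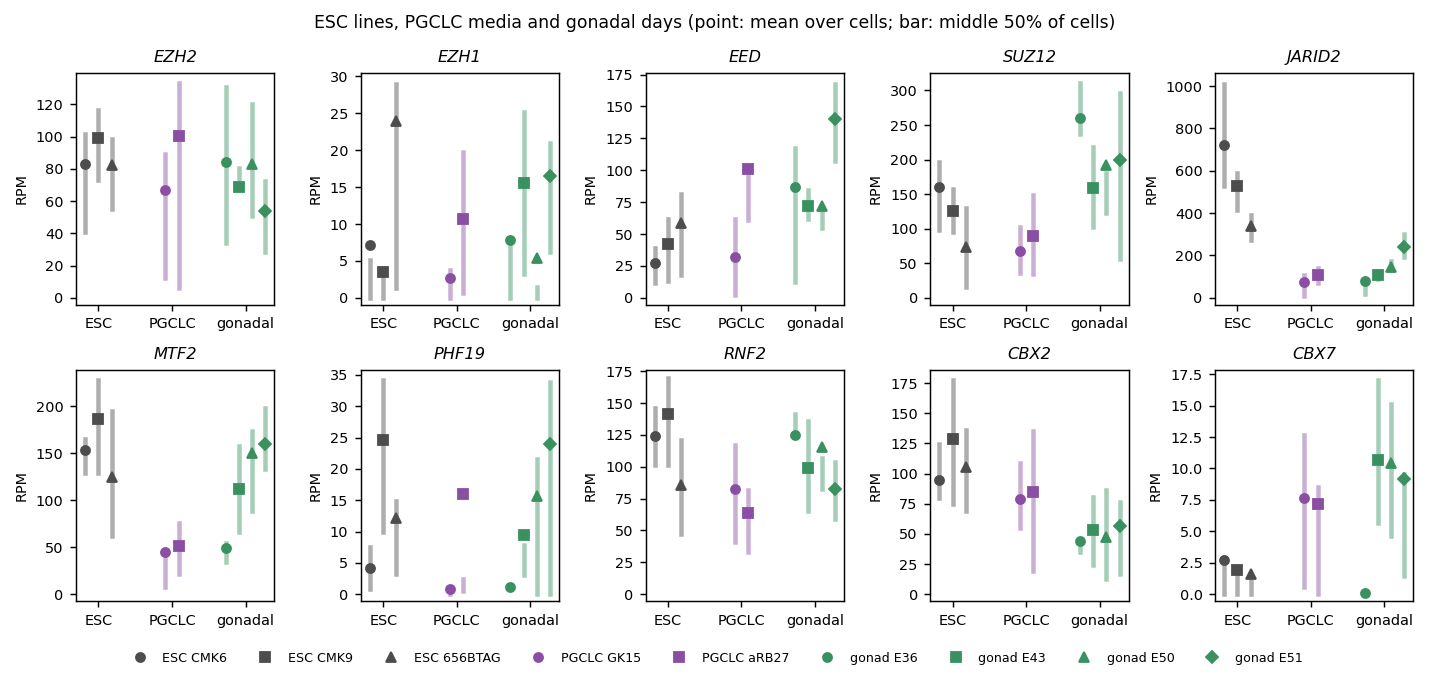
Mean RPM of each gene in 3 ESC lines, 2 PGCLC media and 4 gonadal days, with bars for the middle 50% of cells. JARID2 lies at 338 to 722 RPM in ESCs and at or under 237.7 RPM in all germ cell units, and CBX2 falls into 3 ranges that do not overlap.

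Gonadal units held somatic transcripts too. Of 5 gonadal somatic markers, 4, 5, 3 and 4 reached 10 RPM in E36, E43, E50 and E51, and their sums ran from 109.8 RPM at E50 to 539 RPM at E43, beside 0.947 to 17.9 RPM in ESCs. Without the 10 cells in which at least 2 of the 5 reached 50 RPM, JARID2 still differed from ESCs by -2.32 and CBX2 by -1.40, both called, while SUZ12 differed from PGCLCs by 1.17, with an adjusted p of 0.132. This check was chosen after seeing the data. It left 3, 2, 5 and 4 cells in the 4 units, and the minimum of 5 cells per unit was dropped for it.

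Among the other Polycomb genes, 3 of 23 tested were called higher and 2 lower in PGCLCs than in ESCs (11.1% of all genes were called), 6 and 1 in gonadal cells than in ESCs (20.8%), and 3 and 0 in gonadal cells than in PGCLCs (12.4%). BMI1, SCMH1, YAF2 and EZHIP are among those called higher. They were under 10 RPM in every ESC unit and entered the test only through germ cell units, so their values are a description and the counts that hold them support nothing. BMI1, a PRC1 subunit needed by stem cells of many tissues, averaged 3.70 RPM in ESCs, 101.5 RPM in PGCLCs and 143.1 RPM in gonadal cells. SCMH1 averaged 1.70, 15.3 and 22.9 RPM and YAF2 2.99, 30.01 and 15.8 RPM in the same order. PCGF3, a subunit of a variant PRC1, averaged 43.3 RPM in ESCs, 2.86 RPM in PGCLCs and 44.5 RPM in gonadal cells, and CBX6 30.55, 3.25 and 28.99 RPM. Both were under 10 RPM in both PGCLC units and entered the test only through ESC and gonadal units. Their values are therefore a description too, and the counts that hold them support nothing. RING1, the paralog of RNF2, was lower in gonadal cells than in ESCs, at 20.6 against 62.7 RPM (-1.82 ± 0.59, SE, adjusted p 0.0392).

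EZHIP, an inhibitor of EZH2, was listed at 0 in all 3 ESC and both PGCLC units and measured 24.9, 4.71, 37.9 and 35.2 RPM in the gonadal units. LCOR, whose locus encodes a PRC2 cofactor, and RBBP4, a histone-binding PRC2 subunit, were also higher in gonadal cells than in ESCs. The H3 lysine demethylase KDM6A, which removes the PRC2 mark, was higher in gonadal cells than in ESCs (76.7 against 29.4 RPM, 1.39 ± 0.40, SE, adjusted p 0.0227). Of 18 proliferation genes 4 were lower in that comparison, a share near the 20.8% called over all genes. RRM2 was at 81.5 against 460 RPM. The part of proliferation genes in the differences of the members was not tested.

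Among embryo cells, 7 held SOX17, TFAP2C and NANOS3, genes of early germ cells, at 20 RPM or more each, 3 of them at E13, 3 at E17 and 1 at E20. Their JARID2 level was 73.6 ± 50.3 RPM (SD, n = 7 cells), with a median of 60.98 RPM, and CBX2 stood at 48.95 ± 35.1 RPM. SUZ12 stood at 134.2 ± 68.1 RPM, EZH2 at 116.9 ± 93.6 RPM, MTF2 at 114.6 ± 87.1 RPM, EED at 85.85 ± 80.8 RPM and RNF2 at 139.9 ± 64.05 RPM. The mean of JARID2 lay just under the lowest PGCLC unit (76.1 RPM), SOX2 was at 0.164 RPM and KIT at 318 RPM. With so few cells of 3 days, no test was made.

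Over the 18 units, SUZ12 and CBX2 ran in opposite directions, with a Pearson r of -0.82 and a Spearman rho of -0.73 on the log2 scale. This was the strongest relation among the 45 pairs of members. JARID2 and MTF2 had an r of 0.64 and SUZ12 and EED an r of 0.00. The genes most like SUZ12 were DPPA3, a maternal factor, ME2 and NLRP7, each with an r of 0.92, out of 6960 candidates. Those most like CBX2 were QSER1 (0.93), GSTM2 (0.92) and PTPRZ1 (0.92), those most like JARID2 included TNFRSF12A (0.87) and PPP1R26 (0.86), and those most like MTF2 were RAB13 (0.93), NLN (0.90) and ANAPC7 (0.89). The units differ in cell type, stage and title code, and these values are a description without a test.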

How the data were processed

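The authors deposited 1 table of RPM values (reads scaled to a fixed number of mapped reads) for every gene and cell, made from SC3-seq libraries, which tag the 3-prime ends of transcripts. The submitters' processing notes name cutadapt 1.3, TopHat 1.4.1 and Cufflinks 2.2.0, and the genome build is not given in the sources used here. All RPM values of 1 cell added up to 988458 at least and 996773 at most. Of the gene names, 889 given as locus numbers were replaced through RefSeq identifiers (a table that held 20272 of the 26018 identifiers), and 8622 kept locus numbers. Cells were grouped by their labels. The RPM of the cells of a day, line or medium, or of a POU5F1 class within a day, were averaged where at least 5 cells were present, and limma 3.58.1 (R 4.3.3, empirical Bayes with a trend) was fitted to log2(mean RPM + 1) over all genes with at least 10 RPM in at least 2 units. P-values were adjusted by the Benjamini-Hochberg method over all genes tested, and the comparison of POU5F1 classes had the day as a block. The limma fits were also run on simulated data with independent normal noise for each gene. Such data hold no structure of cell type or title code, so they cannot check the design.

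Whole reads could be recovered from the low RPM values of every cell: 99.8% of the values above 0 that were examined lay within 0.1 read of a whole number. The edgeR 4.0.16 quasi-likelihood test on these reads, summed per unit, was added after the data were seen and called 2588 genes after against before implantation. Other alternatives were a pseudocount of 10, no filter, the mean of log2 values, quantile normalization, units of 1 cell or more, POU5F1 limits of 500.0 and 20 RPM, no day block, and leaving out each unit in turn. The 10 members and the gene lists were chosen with earlier results of these data known. All 10 members were looked at in each comparison. Not all are named in the text of each, and those left out were not called there. Of the lists, up to 3 called genes per direction with the largest change were named, provided that the higher class held at least 10 RPM, and LCOR, RBBP4 and YAF2 in gonadal cells follow from the same rule applied to the PRC1 and PRC2 lists. For likeness the 3 genes with the highest Pearson r among those with at least 50 RPM in a unit were named. A few genes that these rules select are not reported here. The gonadal cells of E47 and E55, 1 each, entered no test with units of at least 5 cells. In 1 CMK6 cell the description names another line, and it was kept, with a fit without it.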

Additional observations from a re-analysis of the deposited data

Results flagged for a closer look

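Groups of 4 to 10 cells or units were searched for 1 value far from the rest, by its gap to the nearest other value as a share of the whole range. Such a value was found 20 times, where chance, which flags about 1 in 20 groups, gives about 5.9 over the groups searched. Many were of genes at 0 in most cells, where a single positive cell stands apart.

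Among unit means, RNF2 at E20 (171.2 RPM) stood above the other days after implantation (127.5 to 137.4). CBX7 at E06 (8.935 RPM) stood above the other days before it (2.809 to 3.722), and CBX7 in gonadal E36 cells (0.1 RPM) below the other gonadal days (9.157 to 10.64).

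Among the PRC2 core genes, 1 of 6 gonadal E43 cells was listed at 0 for EZH2 while the others held 72.75 to 110.7 RPM. For EED, 1 aRB27 PGCLC held 251.6 RPM (others 50.85 to 102.1) and 1 gonadal E50 cell 117.3 RPM (52.29 to 70.25). EZH1 reached 27.28 RPM in 1 gonadal E36 cell (others up to 7.42) and 25.45 RPM in 1 gonadal E50 cell (up to 1.51).

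For JARID2, 1 gonadal E36 cell held 247.2 RPM beside 16.96 to 70.44 RPM, so most of that unit lay well under its mean. For MTF2, 1 GK15 PGCLC held 164.8 RPM beside 3.87 to 53.59 RPM. PHF19 had single high cells at 3.95 RPM in GK15 (others up to 0.74), 90.79 RPM in aRB27 (up to 2.94), 5.55 RPM in gonadal E36 (all others 0) and 33.43 RPM in gonadal E43 (up to 7.93).

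RNF2 held 228.3 RPM in 1 gonadal E50 cell beside 67.61 to 106.7 RPM. CBX7 had single high cells at 19.72 RPM in E20 (others up to 0.72), 7.54 RPM in CMK9 (up to 2.36), 30.98 RPM in aRB27 (up to 11.15), 0.5 RPM in gonadal E36 (all others 0) and 36.76 RPM in gonadal E51 (up to 13.24).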

How the results depend on the processing

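Of 635 recomputed changes of members, 581 kept their direction and side of the threshold, 34 lost and 16 gained a call, 2 moved and 2 reversed. The reversed ones, neither called at first, were JARID2 in the difference of the implantation change between POU5F1 classes (-0.06 without E13, up to 1.49 without E16) and EED in gonadal cells against PGCLCs (-0.17 without GK15, up to 1.45 without aRB27). Across implantation in all embryo cells, 12.2% of the genes tested were called without a filter, 5 members with quantile normalization, and 3 to 5 members with 1 day left out; in POU5F1-high cells 12.7% of genes were called without a filter. For POU5F1-high against POU5F1-low cells, 2 members were called with a pseudocount of 10, 3 with the mean of log2 values or quantile normalization, 0 without a filter or by edgeR, and 0 to 1 with 1 day left out. Genes called there were 0.00454% without a filter, 11.7% with the mean of log2 values, 3.94% with units of 1 cell or more, 14.7% with the stricter POU5F1 limits, 1.02% by edgeR, 2.76% with no day block and 1.4 to 2.05% with 1 day left out. Across implantation in POU5F1-low cells, 0% of genes and 0 members were called without a filter, 17.8% of genes with the mean of log2 values, 3.24% and 1 member with units of 1 cell or more, 3.57% and 1 member by edgeR, 1 member with quantile normalization, and 0.434 to 14.6% and 0 to 3 members with 1 unit left out. The difference between the classes was called for 0.772% of genes with a pseudocount of 10, 2.56% with the mean of log2 values, 0.0401% with quantile normalization and 0 to 1.45% with 1 day left out. For PGCLCs against ESCs, 4.42% of genes and 1 member were called with no filter, 4.43% and 1 when units could hold 1 cell, 6.34% and 1 without gonadal cells that held somatic markers, 7.1% and 1 by edgeR, and 4.58 to 13.9% and 1 to 2 members with 1 unit left out. For gonadal cells against ESCs, 9.84% of genes were called with no filter and 13.1% when units could hold 1 cell, and 12.6 to 22.2% and 1 to 3 members with 1 unit left out. For gonadal cells against PGCLCs, the values were 3.98% and 0 members with no filter, 5.3% and 0 when units could hold 1 cell, 7.23% and 0 without gonadal cells that held somatic markers, 7.09% and 0 by edgeR, and 3.7 to 14.5% and 0 to 2 members with 1 unit left out. The mean of log2 values moved the median change over all genes from -0.05 to -0.30 across implantation, where SUZ12, CBX2 and RNF2 kept their calls. It moved the share of calls that were higher from 49.8 to 33.64% there, 51.5 to 34.24% in POU5F1-high cells, 70.3 to 30.41% in POU5F1-low cells, 49.85 to 66.27% between the classes and 44.91 to 26.83% for PGCLCs against ESCs, and stricter POU5F1 limits gave 38.19% between the classes. The cause of these shifts was not tested. The stricter POU5F1 limits could not be fitted in POU5F1-low cells or for the difference between the classes. Replicate numbers only name cells in accession order, so they could not be used to pair cells. The day was the block between POU5F1 classes, and differences within a title code were given without a test.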
